A study of Mus musculus with 17 samples.

Results

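Mouse adult neural retinal progenitor cells (mNRPCs) grown with basic fibroblast growth factor (bFGF) for 5 or 7 days were set against the same cells on day 0, to ask which transcripts bFGF cultures still held at their starting level and which they had lost or gained. Of the 17 libraries in the series, 5 entered this comparison, namely the day 0 control and the bFGF libraries of days 5 and 7, and of 18836 genes listed, 11258 with a mean of at least 1 FPKM (fragments normalised to transcript length and library size) over all libraries were compared. The difference from day 0 was taken on the log2(FPKM + 1) scale, and each library was scaled so that its median gene did not differ. FPKM values are printed as deposited, before that scaling. A gene was called lost when it was at least 1 lower in all 4 libraries, which is at least 2-fold in FPKM + 1, gained when it was at least 1 higher in all 4, and held when it stayed within 1 of day 0 in all 4. Genes past the limit in some libraries only were left as mixed.

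The cells came from the retinas of C57BL/6 mice aged 8 to 10 weeks and grew on Matrigel in DMEM/F12 with N2 and B27 supplements, the basal medium (BM) that all groups shared. According to the study's methods the line had been propagated with bFGF and CHIR99021 before these treatments. To the medium was added bFGF (B), the GSK3 inhibitor CHIR99021 (C) or both (BC), and poly(A) RNA was sequenced on days 1, 3, 5 and 7. The study describes the day 0 cells as kept in BM, and the labels give them no treatment. Each combination of medium and day was 1 library, so no condition has a replicate, the 4 bFGF libraries differ in CHIR99021 and in day, and every difference from day 0 rests on 1 control library. The cells are a cultured line from adult tissue, and the number of animals behind it is not given in the sources used here. In bulk libraries, fewer cells of a kind and less RNA per cell cannot be told apart.

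bFGF (Fgf2) is a mitogen of neural and retinal progenitors. It binds FGF receptor tyrosine kinases and works largely through the RAS-ERK cascade, which turns on its own feedback inhibitors (Spry and Dusp genes) and ETS factors (Etv4 and Etv5) and drives cells from G1 into S phase. CHIR99021 blocks GSK3 and is used to stabilise β-catenin.

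Retinal identity was checked against marker genes of the tissue. Pax6, a transcription factor of the eye field, was listed at 24.2 FPKM on day 0, Six3 at 25.2, Sox2 at 27.7 and Nes at 11.0. Rax, which defines retinal progenitors in the embryo, was at or near 0, at most 0.07 FPKM in any of the 17 libraries, as were Gfap (0.12), Rcvrn (0.21), Rpe65 (0.09) and Mitf (0.54). Expected counts summed to between 17571973 and 19428744 in each library, and 0 pairs of libraries were identical. The 10 most abundant genes took 7.45 to 7.68% of counts in the 4 bFGF libraries and 4.49% on day 0, and the median gene lay 0.24 to 0.33 lower than on day 0, a shift that the scaling removes.

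With bFGF, 6096 genes were held, which is 54.1% of the 11258, while 1219 (10.8%) were lost and 1314 (11.7%) were gained. In the 4 libraries without bFGF on the same days, 6683 genes (59.4%) stayed within 1 of day 0, 1671 (14.8%) were lower and 1582 (14.1%) higher by the same rule. With bFGF, the remaining 2629 were mixed, and 2 of them passed 1 in opposite directions in different libraries. The filter used all 17 libraries, so held genes include some that were near 0 FPKM both on day 0 and with bFGF. Lost genes were abundant at the start, with a median of 22.2 FPKM on day 0 against 4.55 for their mean in the 4 libraries, and 125 of them were under 1 FPKM in all 4. Gained genes went from a median of 6.17 to 22.1 FPKM, and 234 of them were under 1 FPKM on day 0. A difference of at least 3 in all 4 libraries was reached by 64 gained and 13 lost genes. The 4 libraries lay close to each other, since B and BC differed by 1 or more in 67 genes (0.595%) on day 5 and 56 (0.497%) on day 7, and day 5 differed from day 7 in 162 genes (1.44%) in B and 245 (2.18%) in BC.

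Most of the distance from day 0 was covered between days 1 and 3. On day 1, 3.95% of genes had moved by 1 or more in B, 3.94% in BC, 8.14% in BM and 8.63% in C. On day 3 these shares were 28.0% and 32.4% with bFGF, and by days 5 and 7 they were 32.5 to 34.9%. The libraries without bFGF were about as far from day 0 by then, at 33.5 to 35.5%. The genes lost with bFGF had a median difference of -0.48 in B on day 1, -1.37 on day 3, -1.67 on day 5 and -1.57 on day 7. In BM the same genes stood at -1.14 and -1.08 on days 5 and 7.

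**Figure D1:**
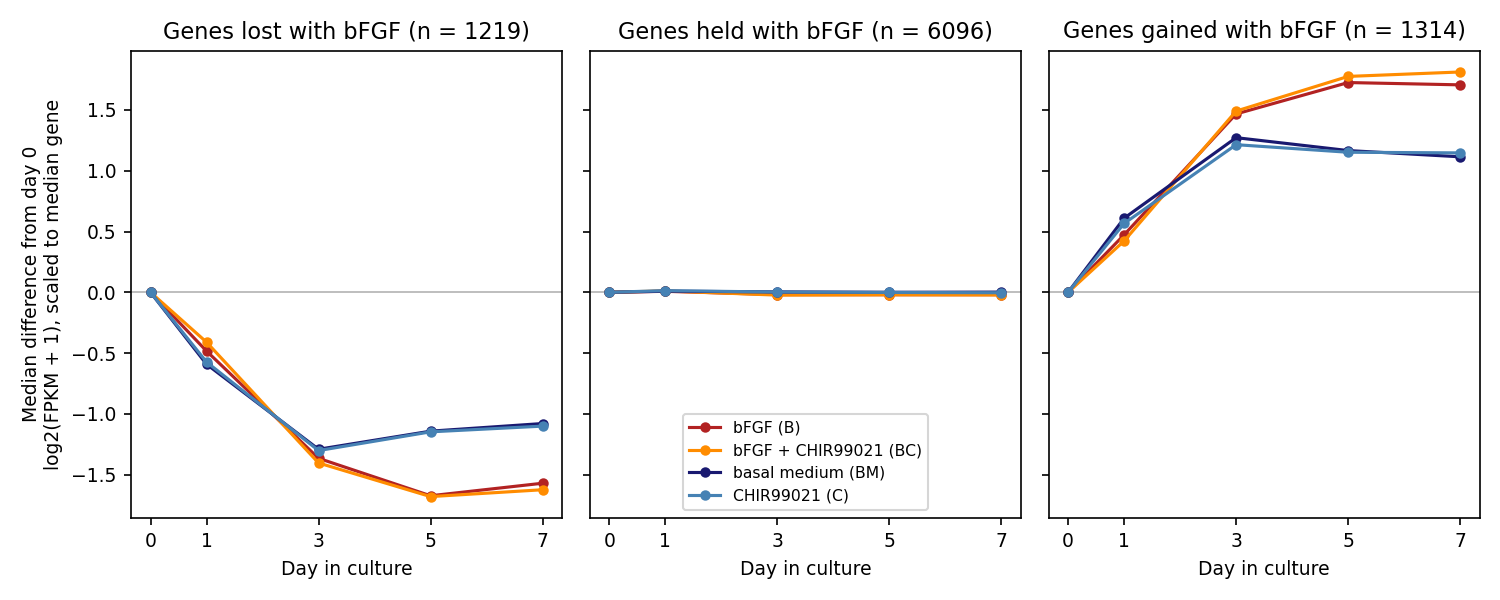
Median difference from day 0 (y axis, log2(FPKM + 1), scaled to the median gene) of the genes lost, held and gained with bFGF, by day in culture (x axis), 1 line per medium and 1 library per point; day 0 is 0 by construction. The genes were chosen on the B and BC points of days 5 and 7, where lost genes sit at -1.68 to -1.57 and gained genes at 1.71 to 1.81; on the same days the BM and C lines lie between these and 0.

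A pair of further comparisons that leave out day 0 were fitted with edgeR's quasi-likelihood test and are given beside the values of the gene groups. The first set the 4 bFGF libraries of days 5 and 7 against the 4 libraries without bFGF, with day and CHIR99021 in the model. It called 76.5% of 11246 genes at an adjusted p under 0.05, 36.5% higher and 40.1% lower with bFGF. The second set days 5 and 7 against day 1 within the bFGF cultures and called 58.8% of 10776 genes, 28.3% higher and 30.5% lower. Day 1 gives it 2 libraries, and without BC day 1 it called 1400 genes higher and 1450 lower, without B day 1 1636 and 1681, against 3054 and 3283 with both. In both fits, libraries of different days or media stand in for replicates. The p-values measure the spread left between those libraries after the terms of each model. Both fits reuse the bFGF libraries of days 5 and 7 on which lost and gained genes were called. Fits of genes named as lost or gained are therefore not independent of that choice.

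**Figure D2:**
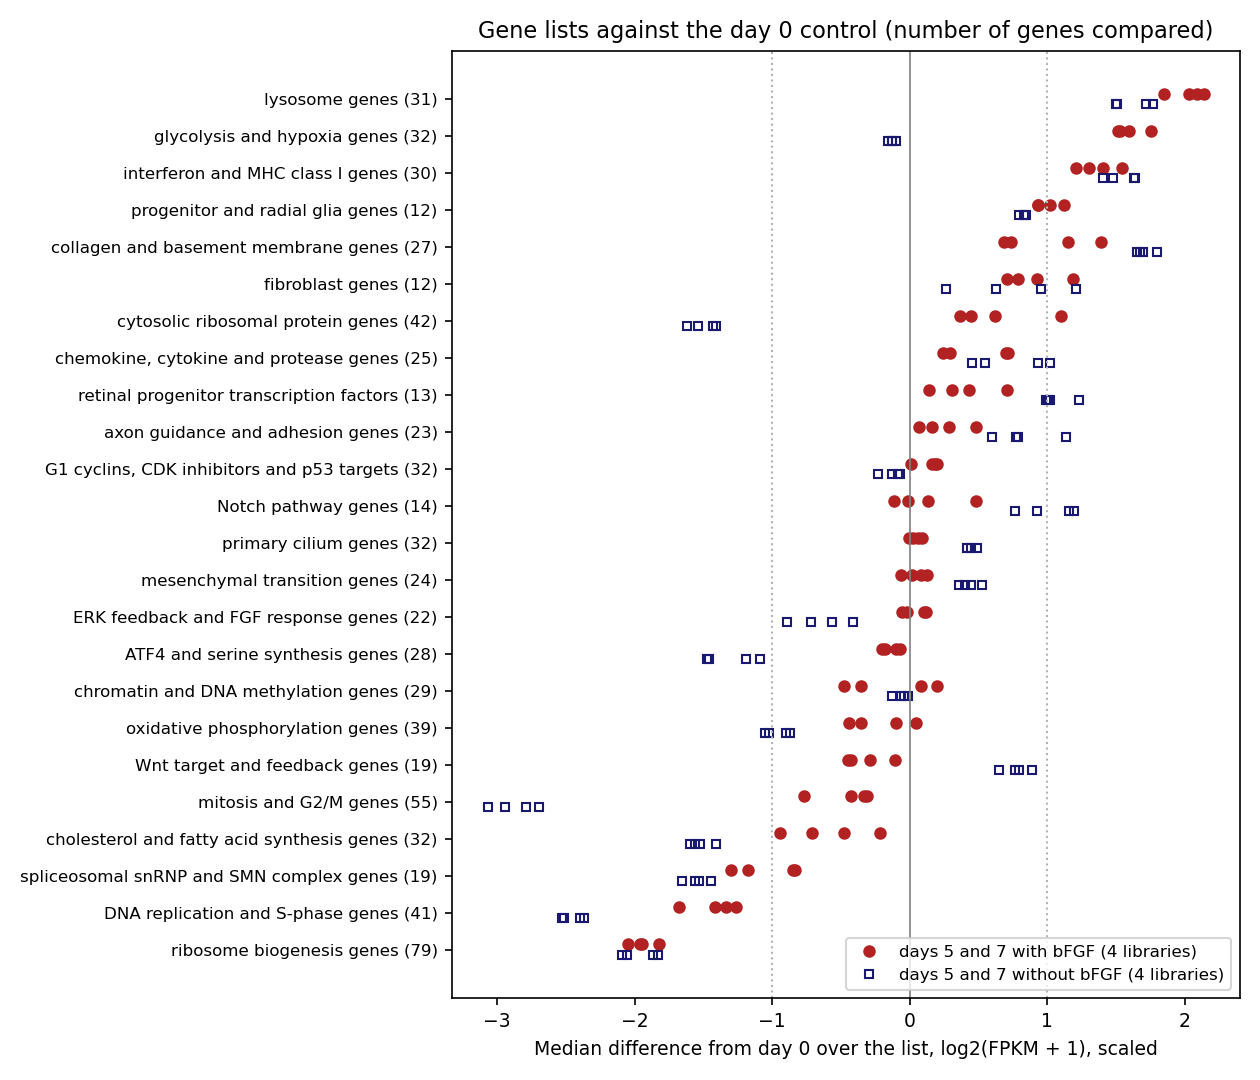
Median difference from day 0 (x axis, log2(FPKM + 1), scaled to the median gene) for each gene list with at least 10 genes compared; filled circles are the 4 bFGF libraries of days 5 and 7, open squares the 4 libraries without bFGF, and dotted lines mark 1 and -1. Lysosome, glycolysis and interferon lists lie above 1 with bFGF, ribosome biogenesis and S-phase lists below -1, and the G2/M list at -0.77 to -0.31 with bFGF against -3.07 to -2.70 without.

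The promoters of the gene groups were searched for 7 short motifs in the 250 bases before the RefSeq start (build GRCm38.p6), on either strand, where 9058 of the 11258 genes had an entry. The motifs were AP-1 (TGANTCA), the cell cycle element CHR (TTTGAA), E2F (TTCCCGC), the CCAAT box (CCAAT), the HIF core (ACGTG), ETS (CCGGAAG) and the E-box (CACGTG), which contains the HIF core. An ETS match was found in 20.1% of lost and 9.64% of gained genes, against 14.9% of all, and an AP-1 match in 2.99% and 6.36%, against 3.99%. The other 5 motifs lay within 2 percentage points of the background in lost, gained and held genes. A match describes letters only and shows no binding.

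The median mitotic gene lay less than 1 below day 0 with bFGF, and the median gene of DNA replication more than 1 below. Of 55 mitosis and G2/M genes, 34 were held (61.8%, against 54.1% of all genes), 3 were lost, 1 was gained and 17 were mixed, so that the share held was near that of all genes. BC day 5 had 18 of the 55 at least 1 below day 0 (16.6% of all genes were), and the other 3 libraries had 5 to 9. The list's median differences were -0.33, -0.77, -0.31 and -0.43 in B day 5, BC day 5, B day 7 and BC day 7, the order used for all values of the 4 libraries from here on. Without bFGF, 50 of the 55 were at least 1 lower than day 0 in all 4 libraries (14.8% of all genes were) and the medians were -3.07 to -2.70. The edgeR fit of days 5 and 7 found 54 of the 55 higher with bFGF than without and none lower, against 36.5% of all genes higher.

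Ube2c, the ubiquitin-conjugating enzyme of the anaphase-promoting complex, was at 309.6 FPKM on day 0 and at 335, 202, 344 and 298 in the 4 bFGF libraries. BC day 5 was the low one and the others lay on both sides of day 0, while the libraries without bFGF were at 20.1 to 32.1 FPKM (log2 fold change with bFGF 3.98 ± 0.15 (SE), edgeR adjusted p = 6.63e-08). Cks1b, a subunit of the cyclin-dependent kinase complexes, was at 262 FPKM on day 0, 189, 129.8, 249.7 and 243 with bFGF and 35.6 to 44.1 without. Its paralogue Cks2 was at 138 on day 0, 142, 105, 213 and 206 with bFGF and 26.1 to 30.1 without. Anp32e, a chaperone of histone H2A.Z, was lower, at 83.1, 65.6, 79.8 and 69.0 FPKM against 149 on day 0, without reaching a difference of 1.

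The 3 mitotic genes lost were Tubb4b, a β-tubulin, at 83.2, 60.1, 32.1 and 35.5 FPKM against 295 on day 0, Plk1, the polo-like kinase of mitotic entry, at 51.7, 34.9, 47.7 and 37.1 against 151, and Cenpe, a kinetochore motor, at 8.82, 8.09, 9.61 and 7.85 against 30.3. Plk1 and Cenpe still lay above their levels without bFGF, which were 11.9 to 16.6 and 2.60 to 4.13 FPKM. The gained gene was Psrc1, which binds spindle microtubules, at 15.2, 16.0, 17.3 and 16.1 FPKM against 5.99.

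The G2/M genes did not stay level through the week. Their median difference was -0.40 in B and -0.35 in BC on day 1, -1.02 and -1.49 on day 3, and -0.31 and -0.43 on day 7, so that day 3 was the lowest point in both media. Ube2c followed this course in B, at 196 FPKM on day 1, 161 on day 3 and 335 on day 5, and in BC, at 194, 109 and 202. In BM the list stood at -2.93 on day 3 and -2.79 on day 7. With 1 library per point these courses carry no test. The edgeR fit of day 1 against days 5 and 7 called 9 of the 55 higher and 9 lower, against 28.3% and 30.5% of all genes.

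Of 41 genes of DNA replication and S phase, 25 were lost (61%, against 10.8% of all genes), none was gained, 7 were held and 9 were mixed. The medians were -1.42, -1.68, -1.26 and -1.34, and without bFGF they were -2.53 to -2.37. There 38 of the 41 were lost (14.8% of all genes were). Rrm2, the small subunit of ribonucleotide reductase, was at 11.9, 9.37, 11.5 and 12.8 FPKM against 125 on day 0. The large subunit gene Rrm1 was at 37.1, 30.7, 45.0 and 36.5 against 149 FPKM. Pcna, the sliding clamp of DNA polymerase, was at 48.6, 43.5, 77.8 and 84.7 against 242, with both day 7 libraries above both day 5 libraries. Mcm6, a subunit of the replicative helicase, was at 16.7, 14.6, 21.9 and 24.0 against 89.6.

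S-phase transcripts with bFGF lay between day 0 and the cultures without bFGF. Rrm2 differed between the 4 libraries with and the 4 without bFGF by a log2 fold change of 0.88 ± 0.13 (SE), edgeR adjusted p = 0.000199, and Pcna by 0.92 ± 0.15 (SE), edgeR adjusted p = 0.000362. The same fit called 32 of 40 tested genes of the list higher with bFGF and 3 lower, against 36.5% and 40.1% of all genes. Within the bFGF cultures, 31 of 41 were lower on days 5 and 7 than on day 1 and 1 was higher, against 30.5% of all genes lower. That fit shares the bFGF libraries of days 5 and 7 with the day 0 comparison, so its count is not separate support. Held members included Atad2, a chromatin ATPase, at 15.8, 15.4, 16.1 and 18.4 against 26.4 FPKM, Slbp, which binds histone mRNA, at 20.8, 19.9, 22.9 and 29.9 against 44.8, and Pold3, a subunit of DNA polymerase δ, at 11.5, 11.8, 11.0 and 12.7 against 24.0.

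Matches in the promoters of both groups are given beside those of all promoters. Of the G2/M genes with an entry, 19 of 48 (39.6%, against 10.4% of all) contained CHR and 37 of 48 (77.1%, against 37.7% of all) a CCAAT box. Of the S-phase genes, 11 of 29 (37.9%, against 7.26% of all) contained E2F and 20 of 29 (69%, against 37.7% of all) a CCAAT box. The CCAAT box was thus more frequent than in all promoters in both groups. The stretches below end at the base before the start and are given for Top2a, a topoisomerase of mitotic chromosomes, and Kif11, a spindle motor, with CHR in capitals, and for Rrm1 with E2F in capitals, genes chosen because they contain the motif.
Top2a: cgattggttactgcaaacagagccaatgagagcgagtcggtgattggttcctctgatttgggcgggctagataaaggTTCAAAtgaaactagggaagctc
Kif11: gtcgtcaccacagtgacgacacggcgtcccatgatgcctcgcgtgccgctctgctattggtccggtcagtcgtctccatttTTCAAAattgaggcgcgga
Rrm1: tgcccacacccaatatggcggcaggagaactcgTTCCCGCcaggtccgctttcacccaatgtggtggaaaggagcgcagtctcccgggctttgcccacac
They lie at chr11:99024190-99024289 on the minus strand, chr19:37376282-37376381 on the plus strand and chr7:102441595-102441694 on the plus strand. Top2a was held at 113, 79.6, 134 and 95.6 FPKM against 124 on day 0, and Kif11 at 18.6, 13.6, 15.6 and 12.9 against 28.6, whereas Rrm1 was lost.

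**Figure D3:**
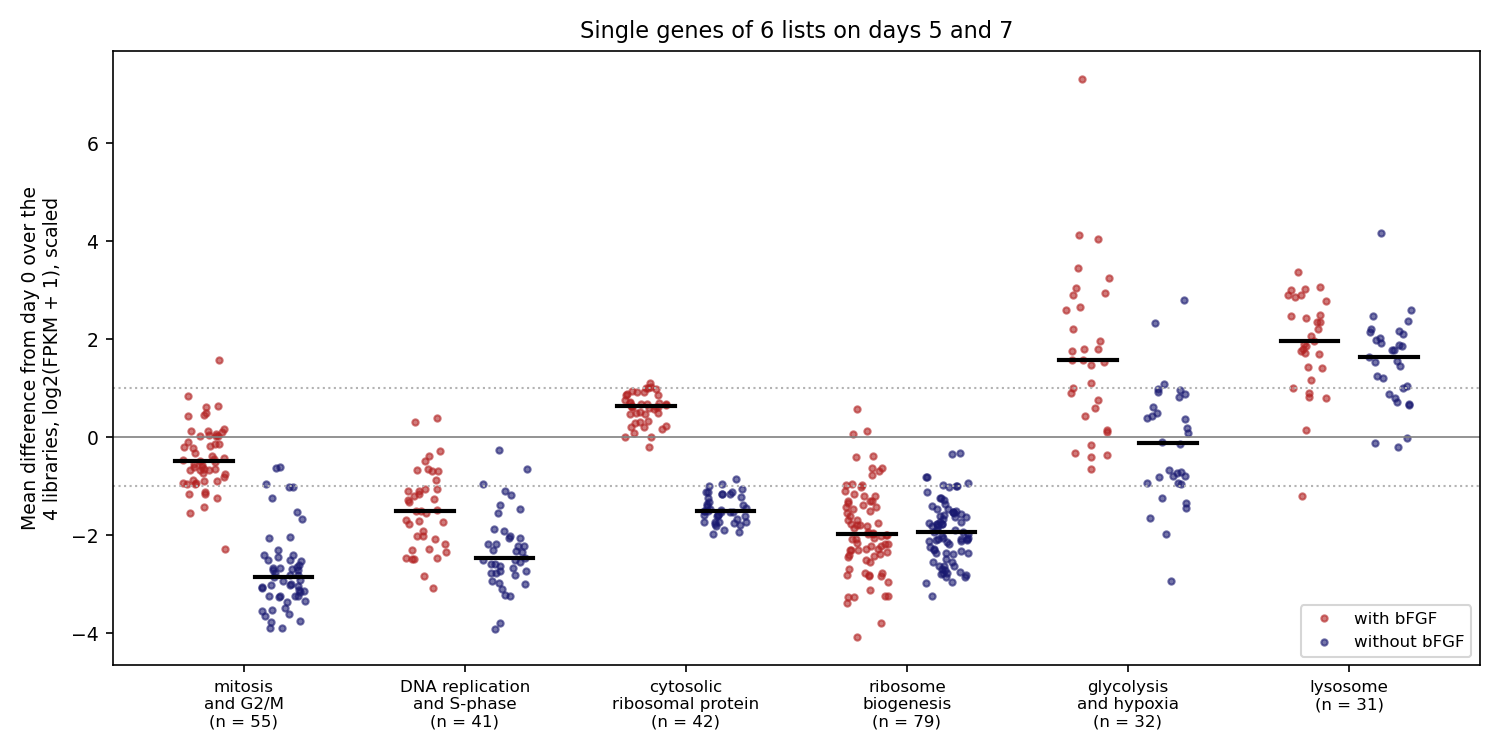
Each point is 1 gene, placed by its mean difference from day 0 over the 4 libraries of days 5 and 7 (y axis, log2(FPKM + 1), scaled to the median gene), with bFGF (red) and without (dark); black bars are medians, and side-to-side scatter has no meaning. Ribosomal protein genes lie at -0.20 to 1.11 with bFGF and ribosome biogenesis genes at -4.09 to 0.58.

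Among regulators of G1, which decide on entry into the cycle, 12 of 32 were held (37.5%, against 54.1% of all genes), 8 gained (25%, against 11.7%), 1 lost (3.12%, against 10.8%) and 11 mixed. Cdk4, the kinase partner of D-type cyclins, was the lost one, at 86.5, 92.7, 113 and 122 against 334 FPKM on day 0, and lay at 111 to 114 without bFGF. Ccnd2, one of those cyclins, was held at 35.5, 37.5, 24.7 and 25.4 against 43.8 FPKM. Gained members included the Gadd45 genes, which respond to growth arrest and stress, and the CDK inhibitor genes Cdkn1a, Cdkn1b and Cdkn2d. Gadd45a was at 232, 170.0, 327 and 308 FPKM against 12.8 on day 0, Gadd45b at 422, 332, 452 and 426 against 24.7 and Gadd45g at 161, 148, 331 and 363 against 50.4. Cdkn2d, which blocks CDK4 and CDK6, was at 55.5, 44.1, 48.7 and 47.9 against 22.8. Without bFGF, Gadd45a was at 24.9 to 35.6 FPKM, Gadd45b at 38.8 to 51.7 and Gadd45g at 67.3 to 97.4.

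Of 22 genes of ERK feedback and FGF response, 12 were held (54.5%, against 54.1% of all genes), 2 were gained (9.09%, against 11.7%), none was lost (against 10.8%) and 8 were mixed. The shares held and gained were those of genes at large, and the medians were -0.06, 0.12, 0.11 and -0.02, against -0.89 to -0.41 without bFGF. Etv4 and Etv5, ETS factors induced by FGF, were at 34.6 and 18.8 FPKM on day 0. Etv4 was at 41.8, 37.1, 50.0 and 45.7 with bFGF and 2.49 to 6.71 without (log2 fold change 3.90 ± 0.16 (SE), edgeR adjusted p = 9.24e-08). Etv5 was at 24.0, 22.7, 21.4 and 16.9 with bFGF and 3.32 to 7.04 without (2.70 ± 0.20 (SE), edgeR adjusted p = 1.49e-06). Dusp6, a phosphatase that inactivates ERK, was at 18.0, 23.5, 21.5 and 20.4 against 29.2 on day 0 and 3.26 to 8.01 without bFGF. For all 3, day 0 and the bFGF libraries lay above every library without bFGF on days 5 and 7.

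Dusp4, an ERK phosphatase of the nucleus, was gained, at 113, 91.6, 106 and 79.5 FPKM against 25.1 on day 0 and 3.76 to 7.96 without bFGF. Fgfr1, which encodes a receptor for bFGF, was gained too, at 73.6, 80.6, 70.6 and 74.6 against 33.3, and stood at 76.3 to 119 without bFGF. The difference between bFGF and no bFGF for Fgfr1 was 0.02 ± 0.12 (SE), edgeR adjusted p = 0.877, and limma on log2(FPKM + 1), which keeps the shift of the median gene, put it at -0.32.

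The cytosolic ribosome and the machinery that builds it parted. Of 42 ribosomal protein genes, 18 were held (42.9%, against 54.1% of all genes), none was lost or gained, and 24 were mixed, all of them because they were at least 1 higher in some of the 4 libraries. BC day 7 had 24 of them at least 1 above day 0 (18.6% of all genes were), against 0 in B day 5 (16.5%), 1 in BC day 5 (17.2%) and 2 in B day 7 (17.2%), and without that library 40 of 42 counted as held. The medians were 0.37, 0.44, 0.62 and 1.10 with bFGF and -1.62 to -1.41 without. Quantile normalization brought the list's median difference from 0.63 to 0.01, so that the direction against day 0 rests on the scaling. Rps2, a protein of the small subunit, was at 2739 FPKM on day 0, 1945, 1892, 2323 and 3131 with bFGF and 717 to 850.2 without. Rplp0, of the ribosomal stalk, was at 1643 FPKM on day 0, 1805, 1988, 1861 and 2085 with bFGF and 498 to 613 without. All 42 were higher with bFGF than without in the edgeR fit, against 36.5% of all genes. These genes have many processed pseudogenes, and how reads were shared between near-identical copies is not given in the sources used here.

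Genes that process ribosomal RNA and assemble ribosomal subunits made up a large part of the strongest losses. They were put in a list after 6 of them appeared among the 11 genes furthest below day 0, so the count is a description, and the genes named from it were chosen after their values were seen. Of 79 such genes, 65 were lost (82.3%, against 10.8% of all genes), none was gained, 8 were held and 6 were mixed. The medians were -2.05, -1.95, -1.82 and -1.96 with bFGF and -2.09 to -1.83 without, where 70 of 79 were lost (14.8% of all genes were). Ncl, nucleolin, was at 348 FPKM on day 0 and at 56.7, 69.3, 85.3 and 77.0 in the 4 libraries. Fbl, the methyltransferase of box C/D snoRNPs, was at 65.6, 72.0, 92.9 and 92.8 against 298, and its partner Nop56 at 32.0, 28.6, 31.8 and 36.9 against 198. Polr1b, a subunit of RNA polymerase I, was at 1.68, 1.85, 1.95 and 2.27 against 23.4, and Bop1, which matures the large subunit, at 6.45, 4.74, 6.68 and 5.15 against 57.2. These 5 genes were chosen among the lost, which places every bFGF library of days 5 and 7 below the day 0 value.

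When bFGF was set against no bFGF on the same days, 30 of 79 genes were higher with bFGF, 28 lower and the median log2 fold change was -0.11, shares near the 36.5% higher and 40.1% lower of all genes. Heatr3, which helps import ribosomal proteins into the nucleus, was at 32.9 FPKM on day 0, 0.90, 0.94, 1.20 and 1.02 with bFGF and 8.61 to 10.6 without. Gnl3, nucleostemin, was at 78.0 FPKM on day 0, 28.1, 30.0, 30.0 and 30.0 with bFGF and 12.8 to 18.9 without. Not all of the group was lost. Npm1, nucleophosmin, was mixed, at 521, 623, 764 and 805 FPKM against 1261 on day 0. Polr1c, a subunit shared by RNA polymerases I and III, was held at 52.5, 60.2, 48.4 and 52.2 against 62.1, and so was Imp3, of the U3 snoRNP, at 58.6, 60.7, 46.6 and 69.3 against 46.9. The list's median was -0.70 in B and -0.62 in BC on day 1, and -2.06 and -2.34 on day 3. Between day 1 and days 5 and 7 with bFGF, edgeR called 67 of 79 lower and 1 higher, against 30.5% and 28.3% of all genes. That fit reuses the bFGF libraries of days 5 and 7 that led to the list, so this count is a description too.

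Genes of spliceosomal snRNPs and their assembly, listed for the same reason, split by part. The core Sm proteins Snrpe, Snrpg and Snrpd2 were held, at 106 to 206, 134 to 295 and 217 to 390.0 FPKM against 204, 226 and 362 on day 0. Gemin4 and Gemin6, of the SMN complex that loads Sm proteins onto snRNA, were at 0.36, 0.36, 0.71 and 0.51 and at 1.50, 1.36, 2.03 and 1.40 FPKM against 21.1 and 29.4. Wdr77, of the methylosome that modifies Sm proteins, was at 6.09, 7.81, 5.84 and 6.44 against 68.6. In all, 7 of 19 were lost (36.8%, against 10.8% of all genes) and 7 held (36.8%, against 54.1%), and without bFGF 17 of 19 were lost (14.8% of all genes were).

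**Figure D4:**
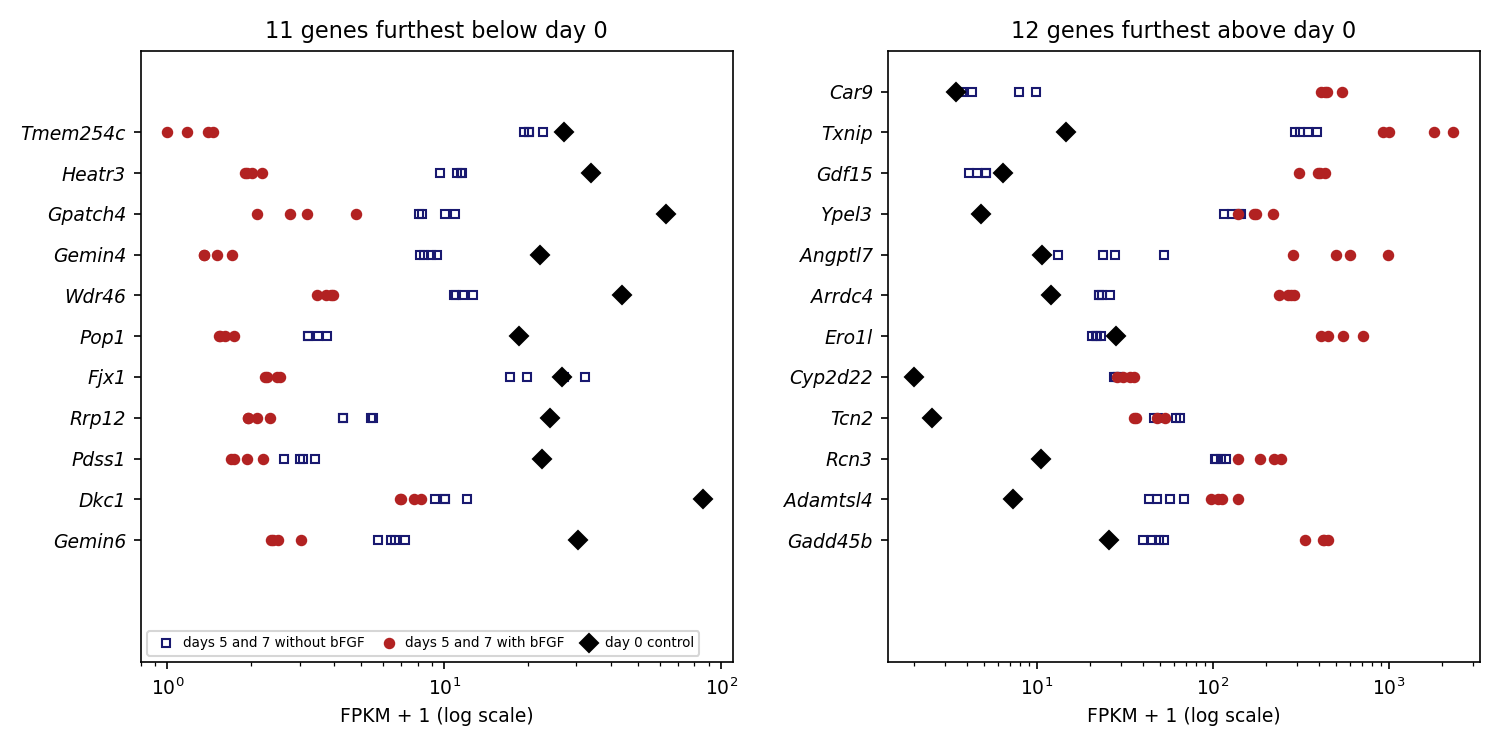
FPKM + 1 (x axis, log scale) of the 11 genes furthest below and the 12 furthest above day 0, ranked by their smallest difference over the 4 bFGF libraries; black diamonds are day 0, red circles the bFGF libraries of days 5 and 7, open squares the libraries without bFGF. The choice fixes the gap between diamonds and circles. Open squares lie close to the red circles for Ypel3, Cyp2d22 and Tcn2, and near day 0 for Fjx1 and Gdf15. For Car9 they lie near day 0 on day 7 and above it on day 5.

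The 11 genes furthest below day 0, among those with at least 5 FPKM there, were Tmem254c, Heatr3, Gpatch4, Gemin4, Wdr46, Pop1, Fjx1, Rrp12, Pdss1, Dkc1 and Gemin6. Their values chose them and carry no test. Dkc1, dyskerin, which makes pseudouridines in ribosomal RNA, was at 84.9 FPKM on day 0 and 5.98, 5.94, 6.76 and 7.22 with bFGF, close to its 8.22 to 11.1 without. Rrp12 went from 23.1 to 1.11, 0.95, 1.35 and 0.96 and Wdr46 from 42.9 to 2.47, 2.91, 2.96 and 2.75, both nucleolar proteins of subunit processing. They were below day 0 without bFGF too, Rrp12 at 3.3 to 4.52 and Wdr46 at 9.8 to 11.7 FPKM. Pop1, a protein of RNase P and RNase MRP, was at 0.61, 0.53, 0.74 and 0.55 against 17.7, and at 2.23 to 2.77 without bFGF. Pdss1, which makes the tail of coenzyme Q, was at 0.69, 0.74, 1.22 and 0.93 against 21.5, and at 1.63 to 2.41 without bFGF.

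Fjx1, a secreted relative of the planar polarity kinase Four-jointed, was at 25.7 FPKM on day 0, 1.25, 1.55, 1.48 and 1.29 with bFGF and 18.8, 31.1, 16.2 and 26.1 in BM day 5, C day 5, BM day 7 and C day 7. Tmem254c belongs to a family of near-identical copies. It was at 26.1 FPKM on day 0 and 0.18, 0, 0.46 and 0.40 with bFGF, while Tmem254b was at 6.92 and 4.41, 6.19, 5.49 and 6.57, and the split of reads between the copies makes both values uncertain.

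The 12 genes furthest above day 0 were Car9, Txnip, Gdf15, Ypel3, Angptl7, Arrdc4, Ero1l, Cyp2d22, Tcn2, Rcn3, Adamtsl4 and Gadd45b. Car9, carbonic anhydrase 9, a cell surface enzyme induced by hypoxia, was at 2.46 FPKM on day 0, 4.24 in B day 1, 171 in B day 3 and 410.1, 444, 433 and 542 in the 4 libraries, against 8.91, 6.88, 2.76 and 3.29 without bFGF. Car9 also rose without bFGF on day 3, to 28.65 FPKM in BM and 32.0 in C. Txnip, which binds thioredoxin and restrains glucose uptake, was at 13.7 on day 0 and 1794, 2306, 923 and 994 with bFGF, with day 5 above day 7 in both media. Without bFGF, Txnip was above day 0 too, at 291 to 387 FPKM. Its relative Arrdc4 was at 11.0 FPKM on day 0, 287, 264, 236 and 277 with bFGF and 21.4 to 25.0 without. Gdf15, a stress-induced cytokine, was at 5.36 on day 0, 431, 308, 396 and 403 with bFGF and 3.09 to 4.11 without.

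Ero1l, an oxidase that forms disulphide bonds in the endoplasmic reticulum, was at 450.2, 411, 709 and 546 FPKM against 26.9 on day 0 and 19.5 to 22.0 without bFGF. Angptl7, a secreted angiopoietin-like protein, varied more, at 596, 986, 286 and 501 against 9.67, and BC exceeded B on both days. Cyp2d22 and Tcn2, a transporter of vitamin B12, were above day 0 in all media. Cyp2d22 was at 27.5 to 34.8 FPKM with bFGF and 26.5 to 27.9 without, against 1.01 on day 0, and Tcn2 at 34.5 to 52.0 and 45.0 to 64.1 against 1.54. Reads of Cyp2d22 may be shared with other genes of the Cyp2d cluster.

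Glycolysis and hypoxia genes were gained with bFGF, and their median without it lay near day 0. Of 32, 19 were gained (59.4%, against 11.7% of all genes), none was lost, 8 were held and 5 were mixed, and the medians were 1.59, 1.51, 1.76 and 1.53 with bFGF and -0.16 to -0.10 without. Gpi1, glucose phosphate isomerase, was at 395 FPKM on day 0, 2591, 2522, 2406 and 2485 with bFGF and 237 to 291 without (log2 fold change 3.68 ± 0.11 (SE)). All 4 bFGF libraries stood apart from the rest. Gapdh was at 2918 FPKM on day 0, 6399, 6133, 7492 and 6725 with bFGF and 1554 to 2363 without, and Aldoa, aldolase A, at 1413 FPKM on day 0, 3868, 3758, 4312 and 3912 with bFGF and 816 to 1014 without. Pgk1, phosphoglycerate kinase, was at 621 FPKM on day 0, 1655, 1552, 1543 and 1342 with bFGF and 233 to 287 without. These 4 genes were chosen among the gained, which places their bFGF libraries above day 0, and all libraries without bFGF lay below it.

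Other steps of glycolysis were held. Pkm, pyruvate kinase, was at 2299, 1889.8, 2052 and 1829.6 FPKM against 1794 on day 0, Ldha, lactate dehydrogenase A, at 1014, 828, 1516 and 1143 against 1236, Eno1, enolase, at 1067, 906, 1168 and 962 against 1639 and Hk1, hexokinase 1, at 88.8, 79.6, 94.8 and 73.3 against 67.1. Vegfa, an angiogenic factor and HIF target, was gained at 124, 105, 94.6 and 107 against 19.7. The list's median was 0.10 in B and 0.08 in BC on day 1, then 1.54 and 1.14 on day 3. From day 1 to days 5 and 7 with bFGF, edgeR called 25 of 32 higher and 1 lower, against 28.3% higher of all genes. This count also rests on the late bFGF libraries of the day 0 comparison and is not separate support. With against without bFGF, edgeR called 29 higher and 1 lower, against 36.5% and 40.1% of all genes. Gapdh is much used as a reference gene, and here it differed from day 0 by 1.47 ± 0.14 (SD over the 4 libraries).

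The HIF core was found in 15 of 28 (53.6%, against 22.6% of all) of the promoters of this list. It was also above the share of all promoters in the G1 (42.3%), lysosome (41.7%) and chromatin (41.7%) lists. In other lists it was below, as in interferon and MHC class I genes (4%). The promoters of Pgk1 and of P4ha1, a collagen prolyl hydroxylase induced by hypoxia, are given with each match in capitals, on either strand.
Pgk1: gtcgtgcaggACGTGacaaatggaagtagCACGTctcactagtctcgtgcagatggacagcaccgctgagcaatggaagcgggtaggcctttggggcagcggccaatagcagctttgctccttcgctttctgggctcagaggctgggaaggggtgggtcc
P4ha1: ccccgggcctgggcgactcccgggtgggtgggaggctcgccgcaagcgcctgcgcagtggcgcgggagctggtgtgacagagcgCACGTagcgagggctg
They end at the base before the start, at chrX:106186940-106187099 on the plus strand and chr10:59323196-59323295 on the plus strand. P4ha1 was chosen for its match, and was gained at 314, 240.3, 279 and 214 FPKM against 51.4 on day 0.

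Of 39 oxidative phosphorylation genes, which serve mitochondrial respiration, 26 were held (66.7%, against 54.1% of all genes), 1 was lost (2.56%, against 10.8%) and none was gained (against 11.7%), with medians of -0.35, -0.44, -0.10 and 0.05, against -1.05 to -0.87 without bFGF. Cox4i1, of cytochrome c oxidase, was at 363, 386, 375 and 459.6 FPKM against 395 on day 0, and Atp5b, of ATP synthase, at 564, 499, 703 and 552 against 947. The lost gene was Ndufs1, the largest subunit of complex I, at 14.8, 14.9, 16.5 and 13.2 against 49.6.

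Lysosome genes were gained in 24 of 31 cases (77.4%, against 11.7% of all genes), with 1 lost, 2 held and 4 mixed. The medians were 2.03, 2.14, 1.85 and 2.09 with bFGF and 1.50 to 1.77 without, so that lysosome genes were above day 0 in both. Ctsd, cathepsin D, was at 246 FPKM on day 0, 1389.6, 1241, 1719 and 1619.9 with bFGF and 1313, 1658, 1462 and 1828 without. Ctsb, cathepsin B, was at 216 FPKM on day 0, 1083, 1297, 1375 and 1628 with bFGF and 691, 1186, 701 and 1136 without. Ctsl, cathepsin L, was further from day 0 with bFGF (1089, 1233, 1495 and 1564) than without (534, 514, 523 and 548), from 291, with a log2 fold change of 1.79 ± 0.12 (SE). Tfeb, a transcription factor of lysosomal genes, was held at 6.12, 7.46, 3.79 and 3.33 against 5.49 FPKM and was at 13.4 to 17.9 without bFGF. Gusb, β-glucuronidase, was the lost member, at 10.4, 9.36, 9.51 and 8.51 against 28.0.

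The E-box was found in 8 of 24 (33.3%, against 8.63% of all) of the lysosome promoters, and in 6 of 24 (25%) of those of chromatin genes. In the promoter of Lamp1, a lysosomal membrane protein chosen for its matches, it occurs 4 times, in capitals.
Lamp1: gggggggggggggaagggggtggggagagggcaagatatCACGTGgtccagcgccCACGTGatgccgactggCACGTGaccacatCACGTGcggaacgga
The stretch lies at chr8:13159061-13159160 on the plus strand and ends at the base before the start. Lamp1 was gained at 352, 310.3, 417 and 338 FPKM against 161 on day 0. In ribosome biogenesis promoters, for comparison, the E-box was found in 6 of 68 (8.82%, against 8.63% of all) and ETS in 18 of 68 (26.5%, against 14.9% of all). ETS was also found in 9 of 30 (30%) of the cytosolic ribosomal protein promoters, a list of which none was lost.

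The MHC class I genes named below were gained, while some interferon-induced genes named below lay near or under day 0. Both kinds stood in 1 list, so neither has a count of its own. Of 30 interferon and MHC class I genes, 16 were gained (53.3%, against 11.7% of all genes), 1 was lost, 5 were held and 8 were mixed, and the medians were 1.31, 1.21, 1.41 and 1.54 with bFGF and 1.41 to 1.64 without. B2m, the light chain of MHC class I, was at 1192 FPKM on day 0 and 4285, 5551, 4406 and 6817 with bFGF, and BC exceeded B on both days. H2-D1 and H2-K1, heavy chains, were at 2327 to 3462 and 2090.5 to 2906 against 608 and 602. Both belong to a family of similar genes whose reads may be shared. Isg15, a ubiquitin-like interferon target, was at 555 FPKM in B and 596 in BC on day 1, above its 172 on day 0, and at 128, 117, 143 and 181 on days 5 and 7.

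Without bFGF, Isg15 was still at 436 to 545 FPKM on those days. Ifih1, the sensor of viral RNA, was lost with bFGF, at 3.71, 5.38, 5.67 and 5.90 against 19.4 FPKM, and was at 25.8 to 28.8 without. Interferon-γ-induced GTPases were also near day 0 with bFGF and above it without. Tgtp2 was at 11.7 FPKM on day 0, 5.16, 9.11, 8.01 and 11.6 with bFGF and 106 to 126 without. Iigp1 was at 5.87 FPKM on day 0, 3.43, 4.92, 8.12 and 9.11 with bFGF and 66.1 to 75.7 without, and Ifi47 at 5.71 FPKM on day 0, 2.90, 4.06, 3.65 and 4.22 with bFGF and 36.7 to 45.8 without. From day 1 to days 5 and 7 with bFGF, Iigp1 had a log2 fold change of -2.77 ± 0.35 (SE), edgeR adjusted p = 0.000525, and Ifi47 of -2.58 ± 0.18 (SE), edgeR adjusted p = 8.88e-05. Of the 30 genes of the list, that fit called 10 higher and 11 lower, where it called 28.3% of all genes higher and 30.5% lower.

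Amino acid and stress response genes under ATF4 gave a mixed group. Atf4 itself was held, at 337, 329.6, 275 and 269 FPKM against 285 on day 0, and was at 87.9 to 107 without bFGF (2.10 ± 0.11 (SE), edgeR adjusted p = 2.96e-07). Ddit3, the stress factor CHOP, was gained at 713, 525, 705 and 641 against 43.2, and Nupr1, a stress-induced chromatin protein, at 3400.5, 3906, 3143 and 4052 against 439. Psat1, of serine synthesis, was held at 179, 156, 159 and 168 against 251. Shmt2, which makes glycine from serine in mitochondria, was lost at 42.9, 38.4, 43.0 and 44.5 against 174, and so was Slc7a5, an amino acid transporter, at 34.1, 41.1, 32.1 and 32.5 against 111. Over 28 genes the counts were 14 held (50%, against 54.1% of all genes), 6 gained (21.4%, against 11.7%) and 2 lost (7.14%, against 10.8%), and the medians were -0.10, -0.20, -0.07 and -0.18 with bFGF and -1.47 to -1.09 without.

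The median gene of sterol and fatty acid synthesis lay below day 0 with bFGF by less than 1, with 12 of 32 held (37.5%, against 54.1% of all genes), 4 lost (12.5%, against 10.8%), 1 gained (3.12%, against 11.7%) and 15 mixed. The medians were -0.21, -0.48, -0.71 and -0.94, lower on day 7 than on day 5 in both media, and -1.59 to -1.41 without bFGF. Mvk, mevalonate kinase, was lost at 12.7, 10.1, 10.9 and 10.3 against 81.7 FPKM, and Elovl6, a fatty acid elongase, at 6.80, 11.0, 3.47 and 4.43 against 41.7. Insig1, which restrains SREBP, was the gained one, at 771, 458, 417 and 257 against 160.2, and was at 63.4 to 82.2 without bFGF.

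Among chromatin genes, 6 of 29 were lost (20.7%, against 10.8% of all genes), 5 gained (17.2%, against 11.7%) and 12 held (41.4%, against 54.1%). Hmga2, an architectural protein of progenitors, was at 18.8, 20.1, 35.1 and 34.4 FPKM against 125 on day 0, and at 4.45 to 10.4 without bFGF. H2afx was at 14.1, 11.9, 7.75 and 5.81 against 128, with day 7 below day 5, and Lmnb1, lamin B1, at 23.6, 18.4, 23.7 and 21.8 against 96.7. Gained members included Ezh1, a Polycomb methyltransferase found in resting cells, at 18.0, 22.2, 17.9 and 18.4 against 4.42. Dnmt1, which copies DNA methylation in dividing cells, was held at 29.7, 26.1, 25.7 and 26.4 against 53.3 FPKM. Primary cilium genes were held in 25 of 32 cases (78.1%, against 54.1% of all genes) with bFGF and 25 of 32 without (59.4% of all genes), with medians of 0.09, 0.00, 0.06 and 0.03.

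Of 26 transcription factors of retinal progenitors on the list, 13 were compared, and 8 of these were held (61.5%, against 54.1% of all genes), 2 gained (15.4%, against 11.7%), none lost (against 10.8%) and 3 mixed, so that the shares held and gained were near those of all genes. Pax6 was at 24.2 FPKM on day 0 and 25.1, 33.4, 10.7 and 16.5 with bFGF, so day 7 was below day 5 and B below BC, while without bFGF it was at 189.6, 172, 165 and 152 (-2.61 ± 0.21 (SE), edgeR adjusted p = 2.6e-06). Six3 was at 25.2 FPKM on day 0, 28.5, 33.4, 20.4 and 24.1 with bFGF and 62.3, 55.4, 61.9 and 58.5 without. Sox2 was mixed, at 48.1, 42.5, 40.1 and 29.1 against 27.7. Hes1, a Notch target that represses neurogenesis, was at 20.7 on day 0, 7.64 in B and 6.76 in BC on day 1, 6.66 and 4.63 on day 3 and 12.4, 29.9, 16.1 and 26.3 on days 5 and 7, with BC above B on both of the last days. Id3, an inhibitor of bHLH factors, was gained at 49.4, 44.6, 62.8 and 58.5 against 24.1, and Prox1, a factor of cell cycle exit and horizontal cells, at 13.7, 20.5, 6.82 and 8.02 against 3.37. Without bFGF, Id3 was at 175 to 262 and Prox1 at 36.4 to 57.9 FPKM.

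Notch2, a Notch receptor, was held, close to the limit, at 8.86, 16.4, 6.37 and 6.71 FPKM against 16.8 on day 0, and stood at 98.3 to 122 without bFGF (-3.14 ± 0.23 (SE), edgeR adjusted p = 1.48e-06). Over the 14 Notch pathway genes compared, 9 were held (64.3%, against 54.1% of all genes) and 2 gained (14.3%, against 11.7%), and over 19 Wnt target and feedback genes 8 were held (42.1%, against 54.1%), 4 gained (21.1%, against 11.7%) and 2 lost (10.5%, against 10.8%). Fzd1, a Wnt receptor, was lost at 0.38, 1.05, 0.21 and 0.18 against 4.26, and Fzd7, another, was gained at 54.7, 34.2, 65.01 and 35.2 against 9.74, with B above BC on both days. Vim, vimentin, was at 2991 FPKM on day 0 and 4282, 3747, 3399 and 3782 with bFGF, and Nes, nestin, at 11.0 and 9.08, 5.73, 8.50 and 5.95, lower in BC than in B. Cd24a, a surface protein of neural progenitors, was gained at 77.1, 84.0, 72.7 and 72.1 against 25.2.

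Of 18 Müller glia genes, 8 were compared, and 5 were gained (62.5%, against 11.7% of all genes), while without bFGF 5 of the 8 were at least 1 higher too (14.1% of all genes were). The gained genes included Apoe at 36.6, 42.4, 50.2 and 65.8 FPKM against 2.68 on day 0, Cp, ceruloplasmin, at 289, 567, 235 and 264 against 45.5, and Dkk3 at 96.9, 80.1, 85.4 and 59.7 against 21.6. Without bFGF these genes were at 84.5 to 173, 545 to 598 and 117 to 213. Vegfa, named above as a HIF target, was also among the 5 gained genes. Its mean difference from day 0 was 2.66 with bFGF and 0.39 without, so it was not among the 5 higher without bFGF. Spc25 was among the held genes, at -0.35 with bFGF and -2.66 without, near the medians of the G2/M list. The counts of this list therefore do not stand for Müller glia alone. Glul, glutamine synthetase, the classic enzyme of Müller cells, was held at 20.2, 15.5, 23.3 and 15.8 against 15.0. Of mature neurons of the retina, 3 of 28 photoreceptor genes and 4 of 26 inner retinal neuron genes passed the filter on low values. Guca1a, a calcium sensor of photoreceptors, was the gained one, at 10.2, 6.09, 7.59 and 11.1 FPKM against 0.27.

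Markers of other cell types were summed over every gene of a list that the files hold, whether or not it was compared. Of 18 microglia and leukocyte genes, 17 were listed and 1 was compared, Cd68, a lysosomal protein of macrophages, at 36.2, 21.6, 79.8 and 59.4 FPKM against 0.95 on day 0 and 1.93 to 3.69 without bFGF. P2ry12, which defines microglia, was at 0 in all of these libraries, and the list summed to 23.6 to 82.3 FPKM with bFGF, most of it Cd68, 1.39 on day 0 and 3.66 to 8.41 without. Of 18 endothelial and mural genes, 4 were compared, and the list summed to 13.4 to 20.3 FPKM with bFGF, 29.6 on day 0 and 247 to 488 without, most of it Pdgfrb and Acta2.

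Of 19 epithelial and lens genes, 4 were compared. Crygs, a lens crystallin, was at 0 to 0.33 FPKM with bFGF, 145, 392, 144 and 383 without and 0.08 on day 0, so day 0 and the bFGF libraries shared its near absence. Cryab, a crystallin that is also a stress protein, was gained at 1856, 794, 2374 and 1625 against 359. Of 19 fibroblast genes 12 were compared, with 3 gained (25%, against 11.7% of all genes), 3 held (25%, against 54.1%), none lost (against 10.8%) and 6 mixed, and the list summed to 1214 to 1552 FPKM with bFGF, 1957 on day 0 and 769 to 1206 without. Col1a1, counted as held, passed the filter through the libraries without bFGF and was at 0.14 to 0.43 FPKM with bFGF, 0.11 on day 0 and 8.28 to 45.2 without. The part of other cell types in any result was not tested.

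Contractile and matrix genes divided. Acta2, smooth muscle actin, was lost at 4.49, 1.91, 3.60 and 1.14 FPKM against 24.6 on day 0, lower in BC than in B, and was at 304, 149, 365 and 189.9 without bFGF (log2 fold change -5.97 ± 0.16 (SE)). Ctgf, a matricellular target of YAP and TGF-β, was lost at 0.63, 1.22, 1.59 and 0.73 against 7.28 and was at 26.0 to 83.0 without. Ankrd1, another YAP target, was lost with and without bFGF, at 4.58 to 8.21 and 7.23 to 12.3 against 40.4. Of 27 collagen and basement membrane genes 7 were gained (25.9%, against 11.7% of all genes) and none lost (against 10.8%), while 19 of 27 were at least 1 higher without bFGF (14.1% of all genes were). The genes gained with bFGF included Col18a1 at 239, 226, 197 and 195 against 78.9 and Lama5, a laminin chain, at 145, 143, 115 and 128 against 28.3. Tgfb1 was gained at 62.0, 60.7, 86.7 and 76.1 against 9.60. Mmp2, gelatinase A, was gained at 105 to 189 with bFGF and 174 to 209 without, against 14.0. Il33, an alarmin, was gained at 156, 101, 367 and 240.5 against 25.4, higher in B than in BC on both days, and was at 2.50 to 5.62 without bFGF.

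Among guidance cues, Sema3c was lost at 18.3, 18.6, 15.9 and 13.2 FPKM against 64.7 on day 0 and Sema3f gained at 27.3, 24.8, 16.5 and 22.4 against 2.67. Of the 23 genes of that list, 12 were held (52.2%, against 54.1% of all genes), 2 were lost (8.7%, against 10.8%) and 2 gained (8.7%, against 11.7%), shares near those of all genes. Syt1, a synaptic vesicle protein, was the gained member of 9 neuronal genes compared (11.1%, against 11.7% of all genes), at 3.15, 3.25, 3.05 and 2.14 FPKM against 0.59, and the list's medians were 0.22, 0.23, 0.66 and 0.77 with bFGF and -1.20 to -0.86 without.

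The most abundant genes that stayed within 0.5 of day 0 in all 4 libraries, ribosomal protein genes aside, were Hsp90ab1, S100a10, Eef1g, Myl6, Ybx1, Tubb5, Axl and Anxa5, and 2288 genes in all met that limit. Hsp90ab1, a cytosolic chaperone, was at 1476 FPKM on day 0, 1277, 1208, 1493 and 1507 with bFGF and 676 to 734 without. Eef1g, a translation elongation factor, was at 696 FPKM on day 0, 446, 486, 512 and 594 with bFGF and 222 to 250.1 without. Myl6, a myosin light chain, was near day 0 in all media, at 685 FPKM there, 500.0 to 689 with bFGF and 645 to 725 without. Some held genes stood far from their level without bFGF. Above it was Igfbp3, which binds insulin-like growth factors, at 39.2 FPKM on day 0, 36.7, 28.3, 50.2 and 44.2 with bFGF and 1.36 to 6.63 without. So were the mitotic genes Anln, anillin of the cleavage furrow, and Cenpa, the centromeric histone, with Cenpa at 126 FPKM on day 0, 121, 88.0, 106 and 109 with bFGF and 10.2 to 14.7 without. Below it were Tenm4, a teneurin, at 5.21 FPKM on day 0, 2.03, 3.21, 2.32 and 2.37 with bFGF and 41.5 to 46.8 without, and Aldh3a1, an aldehyde dehydrogenase, at 191 FPKM on day 0, 80.3, 101, 183 and 161 with bFGF and 904 to 1607 without.

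At the threshold itself, Elp2 was just inside the lost genes, at 18.4, 16.6, 18.4 and 18.4 FPKM against 47.7, and Zfp825 just outside, at 2.41, 2.70, 2.22 and 1.99 against 7.76. Rbm38 was just inside the gained genes, at 63.9, 47.5, 71.2 and 63.5 against 27.7, and Tspan3 just outside, at 110.3, 123, 124 and 139.5 against 65.8.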

How the data were processed

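Poly(A) RNA of 17 libraries, 1 for each combination of medium and day, was sequenced on the BGISEQ-500 platform, and the reads were mapped with Bowtie2 to build mm10, per the labels and the submitters' processing notes. FPKM values and expected counts per gene were deposited by the authors, who estimated them with RSEM according to the processing notes and with eXpress according to the study's methods; which of these made the deposited values, their versions and the annotation are not given in the sources used here. Genes absent from a library's list counted as 0, and a symbol listed with 2 identifiers (Plin2) was left out of the gene lists. The depth of each library, from 17571973 to 19428744 expected counts, limits precision for low genes, and 7578 of 18836 genes with a mean under 1 FPKM were not compared.

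Differences from day 0 were computed on log2(FPKM + 1) and centred on the median gene over 11258 genes (Python 3.11.15, pandas 2.3.3, numpy 2.4.6, matplotlib 3.10.9). They have no test. Expected counts were rounded and tested with edgeR 4.0.16 (R 4.3.3), by the quasi-likelihood test with TMM factors and Benjamini-Hochberg adjustment. The fit of 8 libraries of days 5 and 7 had terms for day, CHIR99021 and bFGF and 4 residual degrees of freedom. The fit of 6 bFGF libraries had terms for CHIR99021 and for day 1 against days 5 and 7, with 3. Both were tested on simulated data with known changes. Nothing says that the libraries came from separate cultures, so p-values measure the spread left between these libraries after the terms of each fit. Alternatives used DESeq2 1.42.0, limma 3.58.1 on unscaled log2(FPKM + 1), other scalings, filters, pseudocounts and thresholds, and each library left out in turn.

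The comparison, the 31 gene lists and the motifs were chosen with earlier results of these data known, and the lists of ribosome biogenesis and of snRNP genes after the values were seen. Named genes were the 12 lost and 12 gained genes with the largest smallest difference over the 4 libraries and at least 5 FPKM, up to 4 lost, 4 gained and 4 held genes per list by FPKM, 2 genes on each side of each threshold, the 8 most abundant genes within 0.5 of day 0, held genes furthest from their level without bFGF, and marker genes that check the label. Names that begin with Gm and a digit or LOC, or end in Rik, were left out of this choice. Some of the genes this rule gives, among them 1 of the 12 lost genes, are not reported here. Genes named outside it are said to be so. Promoters came from RefSeq (GRCm38.p6), the first entry per gene. Of the comparisons of the series, only those given here were analysed.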

Additional observations from a re-analysis of the deposited data

Results flagged for a closer look

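Some gene lists lay on one side of day 0 in all 4 bFGF libraries of days 5 and 7 and on the other side in all 4 libraries without bFGF. The median difference from day 0, on the log2(FPKM + 1) scale after scaling to the median gene, was 1.6 with bFGF and -0.13 without for glycolysis and hypoxia genes, 0.63 and -1.5 for cytosolic ribosomal protein genes, 0.47 and -1.03 for 9 general neuronal genes, -0.32 and 0.77 for Wnt target and feedback genes, and 0.14 and -0.13 for G1 cyclins, CDK inhibitors and p53 targets. These differences between lists' medians were not tested. The G1 list depends on the scaling, since its median with bFGF was -0.16 with no scaling, and the ribosomal protein list came to 0.01 under quantile normalization.

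Named genes that passed 1 in opposite directions with and without bFGF were Il33, at 3.15 with and -2.65 without, Dusp4 at 2.18 and -2.2, Insig1 at 1.73 and -1.32, Pgk1 at 1.57 and -1.44, Acta2 at -2.58 and 3.04, and Ctgf at -1.77 and 2.29. Each contrast shares the same day 0 library. edgeR's fit of days 5 and 7 does not use day 0, but it compares the same 8 libraries whose values chose these genes. A difference with against without bFGF was therefore fixed by the choice, and the fold changes only describe its size. The log2 fold change was 6.12 for Il33, 4.61 for Dusp4, 3.08 for Insig1, 3.02 for Pgk1, -5.97 for Acta2 and -5.03 for Ctgf. No group holds 4 samples, so a sample far from its group could not be looked for.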

How the results depend on the processing

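The counts against day 0 depended most on the threshold and on the scaling. The 1219 lost genes became 1903 with no scaling, 1925 with no filter on low values, 2616 at a threshold of 0.5 and 180 at a threshold of 2. The 1314 gained genes became 2590 at 0.5 and 308 at 2, and the 6096 held genes became 13220 with no filter, 2288 at 0.5 and 10016 at 2. A pseudocount of 0.1 gave 1524 lost, 1710 gained and 5024 held genes. With no filter, genes listed at 0 enter the median on which libraries are centred, which then acts as no scaling. Gained genes were 51.9% of those lost or gained, 31.8% with no scaling (887 gained) and 31.7% with no filter (894). Leaving out each of the 4 libraries gave 1279 to 1332 lost, 1369 to 1431 gained and 6280 to 6424 held genes. Everything rests on 1 day 0 library, which cannot be left out.

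Held ribosomal protein genes numbered 18, against 32 with no scaling or no filter, 41 under quantile normalization and 40 without BC day 7. Primary cilium genes held were 25 of 32, and 15 of 20 at a mean of at least 5 FPKM. With no scaling the medians of the Notch (-0.22), mesenchymal (-0.20), ERK feedback (-0.21) and primary cilium (-0.27) lists turned negative. Of the differences of named genes from day 0, 2171 values under alternatives moved by less than the spread over the 4 libraries, 521 by more, and 0 changed sign among called values.

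limma on unscaled values, which keeps the shift of the median gene, called 2447 genes higher and 6511 lower with bFGF on days 5 and 7 (27.3% higher, against 47.6% by edgeR), and 1846 higher and 5059 lower between day 1 and days 5 and 7 (26.7% against 48.2%). It turned the sign of the bFGF effect for Tcn2 (-0.36), Pold3 (-0.052), Cdk4 (-0.13), Fgfr1 (-0.32), Hes6 (-0.41), Lama5 (-0.36), Lamb1 (-0.11), Acly (-0.27), L1cam (-0.34), Ctsd (-0.069), Pcgf2 (-0.027), Ezh1 (-0.022) and Dnmt1 (-0.12). Leaving out single libraries gave 3842 to 4124 higher and 4252 to 4401 lower in the first fit, and 1400 to 3140 higher and 1450 to 3373 lower in the second, the low values without BC day 1 (1400 and 1450) and without B day 1 (1636 and 1681), which leave 1 library of day 1 that is assumed to vary like the others. For named genes in both fits, 5864 values under alternatives stayed on their side of the threshold with the same sign, 272 lost the call, 106 gained it and 13 changed sign. No pairing by replicate was possible because the labels carry no replicate numbers. The fit of days 5 and 7 took account of day and CHIR99021, by which its libraries can be matched, through its terms. Searching 150 bases in place of 250 left the 21 motif shares of lost, gained and held genes, relative to all promoters, within their binomial intervals.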
